A study of Homo sapiens with 32 samples.

Results

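The genes described here encode 54 human enzymes that place or remove methyl and acetyl groups on histone lysines. They were taken as a named list of 33 writers (24 lysine methyltransferases and 9 lysine acetyltransferases) and 21 erasers (13 lysine demethylases and 8 histone deacetylases), out of 59702 genes in the RefSeq table used. A gene counted as marked where the summit of an N6-methyladenosine (m6A) peak lay inside its annotated span, introns included. In at least 1 of 4 peak lists, 50 of the 54 had a peak, and 46 had one in every list. KAT2B, KDM1B, HDAC4 and HDAC5 had none. Together the 4 lists placed 1582 of their 180114 peaks in these genes, and the peaks merged into 569 of 66409 loci, a locus being the union of peaks of 1 strand that share at least 1 bp.

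Histone lysine methyltransferases transfer a methyl group from S-adenosylmethionine, mostly through a SET domain, and each family favours certain residues of the H3 or H4 tail. Acetyltransferases and deacetylases set the acetylation of the same tails, which loosens or tightens chromatin around genes, and the demethylases of the KDM families remove methyl marks. The transcripts of these enzymes are themselves RNA that can carry m6A, a methyl mark on adenosine that the nuclear complex of METTL3 and METTL14 writes, most often within the core sequence GGAC.

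The series has 32 samples, and the 4 used here are m6A immunoprecipitations from A375, an established human melanoma cell line. RNA of the chromatin-associated fraction was depleted of ribosomal RNA and received a methylated spike-in before it was fragmented and enriched with an m6A antibody. The control group (2 libraries, genotype given as WT) carried a control hairpin, labelled shControl. The knockdown group (2 libraries, genotype given as METTL3 knockdown) carried a hairpin against METTL3, labelled shMETTL3, although its peak names use a knockout prefix. Nothing in the labels says that the 2 libraries of a group came from separate cultures, so the spread between them may be technical. The comparison asks where m6A peaks in chromatin-associated RNA are found with and without the METTL3 hairpin. METTL3 had 5 peaks in each of the 4 lists, which does not measure its RNA or protein.

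A few loci overlapped the RefSeq promoter windows, which run from 250 bases before to 50 after an annotated start, and there the transcribed sequence under a locus could be read. Of the 54 genes, 48 had a window, and 11 genes had 1 such locus each, 10 of them on the strand of the gene. The sequences below stand for the 3 kinds of locus, with the GGAC that the locus covered in capitals. Each line gives 30 bases of the transcribed strand, 5′ to 3′, from RefSeq GRCh38.p14.
KDM5B: gcccgtacaactcGGACttgctgttgctcg
SETDB2: tccccggtagaggcagggcgGGACtgttgt
EP300: atgagaaggaggaGGACagcgccgaggagg
KDM4C: gcctgtgtccaaaGGACaagaagatgcgcg
The KDM5B sequence (chr1:202808396-202808425, minus strand) lay under a locus found in both control lists and in neither knockdown list. The SETDB2 sequence (chr13:49444294-49444323, plus strand) lay under a locus found in both knockdown lists and in neither control list. The EP300 sequence (chr22:41092590-41092619, plus strand) and the KDM4C sequence (chr9:6757798-6757827, plus strand) lay under loci of all 4 lists. In KDM5B, SETDB2 and EP300 the GGAC began 10, 41 and 12 bases into the transcript, and in KDM4C 162 bases before an annotated start. GGAC occurred on the transcribed strand in 66.3% of the 35116 windows of 300 bases, and in 18.9% of their last 50 bases. A match is therefore only a description of these windows. Of the 11 loci 4 covered a GGAC inside the window and 7 did not, among them those of HDAC2, KAT7 and HDAC8, the last of which was in all 4 lists.

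The 4 lists held 45345 and 47692 peaks in the control libraries and 44108 and 42969 in the knockdown libraries, so that the knockdown mean was 6.41% lower. A locus is called control-only where both control lists have it and neither knockdown list does, and knockdown-only in the reverse case. Over all loci, 22.6% of those in both control lists were control-only and 18.9% of those in both knockdown lists were knockdown-only. For loci inside any gene these shares were 22.1% and 18.7%. The read depth behind the peaks is unknown, and the input RNA level of each gene was not analysed here, so a missing peak, less methylation and less RNA of that gene cannot be told apart. Of the melanoma and neighbouring cell type markers, all 5 genes of the dedifferentiated melanoma list (AXL, NGFR, EGFR, SOX9 and NRG1) had peaks in both control lists. MITF was the only one of 7 melanocyte genes to have them, 1 of 5 fibroblast genes did (PDGFRB), and none of 6 keratinocyte or 5 leukocyte genes did.

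Erasers had the larger share of control-only loci, through KDM5A and KDM5B above all. Writer genes had 26 control-only loci among 226 in both control lists, which is 11.5% (95% Wilson interval 7.97 to 16.3). Eraser genes had 28 among 106, which is 26.4% (19.0 to 35.5). The writers' share and its interval thus lay below the 22.1% of all loci in genes. The erasers' share lay above it, but its interval included 22.1%. The intervals of writers and erasers did not overlap. They did overlap with stricter peaks. At a fold of at least 4 writers had 11.7% (6.97 to 19) and erasers 22.2% (12.5 to 36.3), both below the 25% of all loci. At a −log10 q of at least 20 they had 12.4% (8.35 to 18.1) and 25.3% (16.9 to 36.2). Without KDM5A and KDM5B, a pair left out after their values were seen, the erasers' share was 19.7% (12.3 to 30), below that of all loci in genes and with an interval that overlaps the writers'. Knockdown-only loci made up similar shares on both sides, 32 of 211 in writers (15.2%, 11 to 20.6) and 14 of 81 in erasers (17.3%, 10.6 to 26.9). With 1 list left out, which asks for less agreement, the control-only share was 17.3% to 20.8% in writers and 31.4% to 34.9% in erasers. That of all loci was then 28.4% to 30.1%. Wilson intervals treat loci as independent and cover counting error only, whereas loci of 1 gene share its RNA.

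In peaks per list, writer genes held 274 and 290 in control and 266 and 273 in knockdown (282 ± 11.3 against 269.5 ± 4.95, mean ± SD, n = 2 each). Eraser genes held 126 and 134 in control against 110 and 109 in knockdown (130 ± 5.66 against 109.5 ± 0.707, SD, n = 2 each). Both knockdown lists were below both control lists on either side, with a mean difference of -4.43% for writers and -15.8% for erasers beside the -6.41% of all peaks. The 2-sided exact permutation test gave p = 0.333 in each case, the smallest that 2 libraries against 2 allow, so neither difference can pass a threshold of 0.05. Eraser genes took 31.5% and 31.6% of the peaks of these enzymes in control and 29.3% and 28.5% in knockdown, again with an exact permutation p of 0.333. With peaks of at least 4-fold enrichment only, the differences turned to 9.5 more peaks per knockdown list in writers and 0.5 more in erasers. Without KDM5A and KDM5B the erasers' difference was -3.5 peaks instead of -20.5. The writers' difference of -12.5 was -2.5 with lists of equal length, -7.5 at a −log10 q of at least 20, -4.5 without control replicate 2 and -20.5 without control replicate 1, and in the first 2 of these the groups overlapped.

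**Figure D1:**
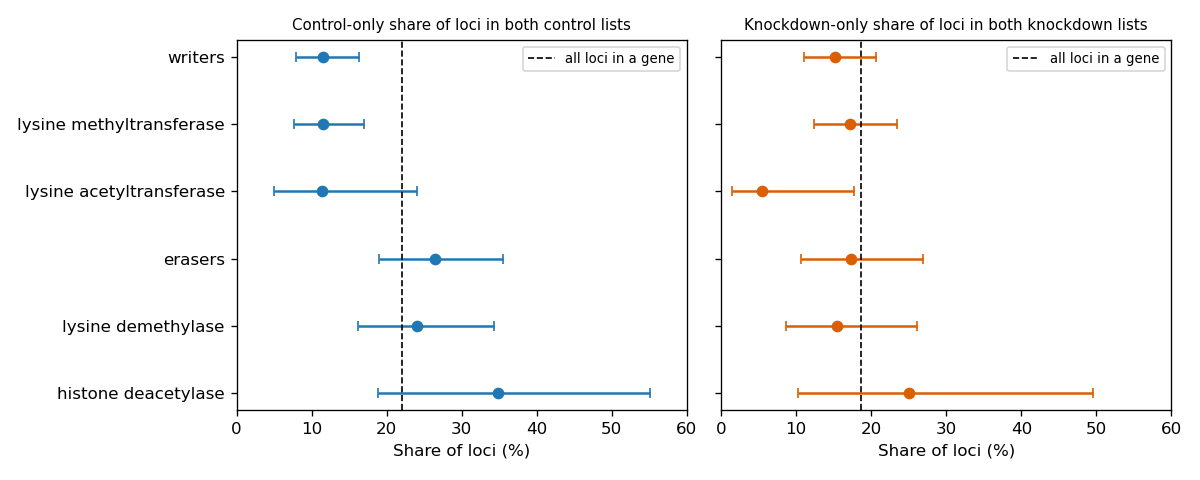
Share of loci (%, x axis) that were control-only (left) or knockdown-only (right) for writers, erasers and the 4 enzyme classes, as points with 95% Wilson intervals; dashed lines give the shares over all loci in genes, 22.1% and 18.7%. The writers' control-only interval ends at 16.3%, left of the line, and the erasers' runs from 19.0% to 35.5%.

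By class, control-only loci were 21 of 182 in methyltransferases (11.5%) and 5 of 44 in acetyltransferases (11.4%). In demethylases they were 20 of 83 (24.1%), and in deacetylases 8 of 23 (34.8%, 18.8 to 55.1). Knockdown-only loci were 30 of 174 in methyltransferases (17.2%), 2 of 37 in acetyltransferases (5.41%), 10 of 65 in demethylases (15.4%) and 4 of 16 in deacetylases (25%). Without KDM5A and KDM5B the demethylases' control-only share was 13.2% (7 of 53, 6.55 to 24.8), near that of the writers. The deacetylases' share rests on few loci.

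Gene by gene, 14 of the 50 enzymes with peaks (28%) had fewer peaks in each knockdown list than in each control list, and 9 (18%) had more in each. Over all 14099 genes with a peak, the same was true of 23.5% and 18.6%. The 14 were SETD1B, NSD1, NSD3, ASH1L, SETDB1, EZH1, KMT5C, EP300, CREBBP, KAT2A, KDM5A, KDM5B, HDAC1 and HDAC8. The 9 were NSD2, SETDB2, SUV39H1, EHMT1, DOT1L, KMT5B, KDM2B, KDM4C and HDAC9. These shares lay near those of all genes. With peaks of at least 4-fold enrichment the first count was 9 and the second 7. With 1 list left out, which asks for less agreement, the first count was 19 or 20. The second was then 10 to 14, with the 14 reached without knockdown replicate 1. The shares of all genes were not computed in these settings.

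**Figure D2:**
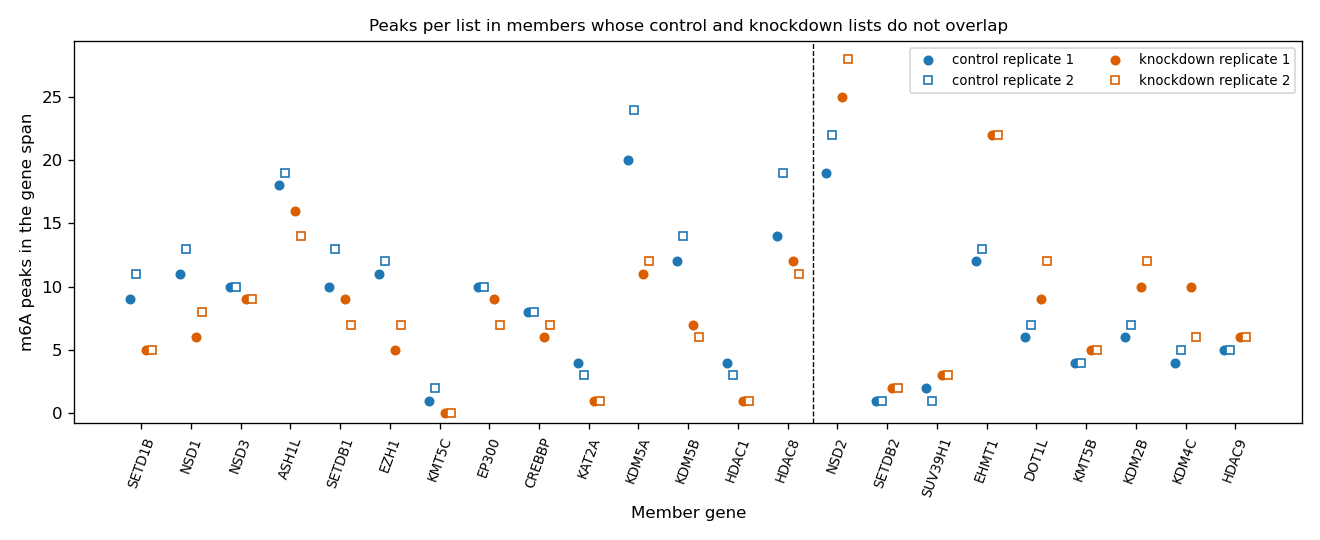
Number of m6A peaks in the gene span (y axis) in each of the 4 lists, for the 23 enzymes whose control (blue) and knockdown (orange) lists did not overlap; filled circles are replicate 1, open squares replicate 2, and the dashed line parts the 14 genes lower in knockdown from the 9 higher. KDM5A (20 and 24 against 11 and 12) and EHMT1 (12 and 13 against 22 and 22) stand farthest apart.

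Among writers, the H3K4 methyltransferases, whose mark sits at active promoters and enhancers, had 109 loci. They had 6 control-only among 60 loci (10%, 4.66 to 20.1), beside 22.1% of all loci in genes. Knockdown-only loci were 8 of 54 (14.8%, 7.7 to 26.6), and this interval includes the 18.7% of all loci in genes. KMT2A (chr11:118436492-118526832), the MLL protein that leukaemia translocations fuse, held 23 and 18 peaks in control and 18 and 17 in knockdown. All 12 loci of KMT2A in both knockdown lists were in all 4 lists, and it had neither a control-only nor a knockdown-only locus. KMT2C (chr7:152134925-152436003), an enhancer H3K4 methyltransferase, held 22 and 19 peaks against 22 and 21, with 12 loci in all 4 lists, 2 control-only and 4 knockdown-only. Its strongest shared locus, meaning here and for other genes the one whose lowest fold is highest, had folds of 10.3 and 8.64 in control and 10.1 and 7.58 in knockdown.

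SETD1B (chr12:121790155-121832656), a catalytic subunit of a COMPASS complex, stood apart within the H3K4 group with 9 and 11 peaks in control and 5 in each knockdown list. Of its 8 loci in both control lists, 3 were control-only, and the strongest of these had folds of 5.31 and 5.26. Without control replicate 1 it had 6 control-only loci. It also had 1 knockdown-only locus, 1.08 kb from the gene end (folds 4.17 and 3.78). KMT2E, an MLL relative without known methyltransferase activity, held 10 and 13 peaks in either group.

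H3K36 methyltransferases, which mark transcribed gene bodies, had 9 control-only loci among 65 and 4 knockdown-only among 57. NSD1 (chr5:177131798-177300213), which dimethylates H3K36, held 11 and 13 peaks in control and 6 and 8 in knockdown, with no overlap. The 3 control-only loci of NSD1 lay together between 106 and 125 kb from its start, and 3 of its 6 loci in all 4 lists lay on each side of them. The strongest of them had folds of 3.79 and 7.28. None passed a fold of at least 4 in both lists, and without knockdown replicate 2 there were 5. The strongest shared locus of NSD1 had folds of 11.5 and 10.5 in control and 12.6 and 12.5 in knockdown, above 10-fold in every list.

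NSD2 (chr4:1871393-1982192), a paralogue that is overexpressed by a translocation in multiple myeloma, went the other way in number. It held 19 and 22 peaks in control and 25 and 28 in knockdown, with 15 loci in all 4 lists, 1 control-only and 3 knockdown-only. Its knockdown-only count was 9 without knockdown replicate 1 and 7 without knockdown replicate 2, and its control-only count 3 without either control list. ASH1L (chr1:155335268-155563202), a trithorax-group H3K36 methyltransferase, held 18 and 19 against 16 and 14 peaks, and 4 of its 16 loci in both control lists were control-only (7 without knockdown replicate 1, and 1 at a fold of at least 4). The strongest of them had folds of 4.66 and 4.38, beside 8.27, 7.28, 11.3 and 11.5 for its strongest shared locus.

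The H3K9 methyltransferases, which mark silent chromatin, had more peaks in the knockdown lists, mostly through EHMT1. SETDB2 and SUV39H1 also had more in each knockdown list, by few peaks. SETDB1 had fewer in each, and EHMT2 and SUV39H2 overlapped between groups. Together the 6 H3K9 enzymes held 27 and 30 in control against 37 and 38 (28.5 ± 2.12 against 37.5 ± 0.707, SD, n = 2 each, exact permutation p = 0.333). Of their 24 loci in both control lists 2 were control-only, beside 22.1% of all loci in genes. Knockdown-only loci were 11 of 31 (35.5%, 21.1 to 53.1), beside 18.7% of all loci in genes. EHMT1 (chr9:137619005-137836127), which encodes GLP, the partner of G9a in H3K9 dimethylation, held 9 of the 11. It had 12 and 13 peaks in control and 22 in each knockdown list, with 9 loci in all 4 lists and no control-only locus. The strongest knockdown-only locus of EHMT1 had folds of 6.77 and 8.48. Its strongest shared locus had 6.37 and 7.83 in control and 5.49 and 6.74 in knockdown, so the knockdown-only locus was as high as the shared ones. Of the 9 knockdown-only loci, 8 were on the gene strand, spread over 113 to 184 kb from the start, and 1 was on the opposite strand. At a fold of at least 4 in every list, EHMT1 had 5 knockdown-only loci.

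The other H3K9 enzymes had few loci. SETDB1 (chr1:150926263-150964737), which silences endogenous retroviruses, held 10 and 13 peaks in control and 9 and 7 in knockdown, with 2 control-only loci and 7 shared ones. SETDB2 had 1 peak in each control list and 2 in each knockdown list, and its knockdown-only locus, the one at the start shown above, had folds of 4.27 and 3.83. That locus is also in the span of another annotated gene. SUV39H1, which trimethylates H3K9 in heterochromatin, held 2 and 1 peaks against 3 and 3.

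DOT1L (chr19:2163933-2232578), which methylates H3K79, held 6 and 7 peaks in control and 9 and 12 in knockdown. Of its 9 loci in both knockdown lists 5 were knockdown-only (55.6%, 26.7 to 81.1), beside 18.7% of all loci in genes. In both control lists it had 5 loci, of which 1 was control-only. The strongest of the knockdown-only loci reached 7.27 and 7.51, beside 4.38 and 6.23 in control and 5.86 and 5.90 in knockdown for its strongest locus in all 4 lists. The weakest of the 5 had only 1.61 and 1.54, and 2 of them passed a fold of at least 4. Without EHMT1 and DOT1L, left out after their values were seen, knockdown-only loci were 9.84% of writer loci (18 of 183) in place of 15.2%, and the writers' difference in peaks per list was -26 in place of -12.5.

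H3K27 methyltransferases, the catalytic subunits of Polycomb repressive complex 2, had 13 and 14 peaks in control and 7 and 8 in knockdown. Nearly all belonged to EZH1 (chr17:42700275-42745040), with 11 and 12 against 5 and 7. Its 2 control-only loci were weak, with folds of 1.80 and 2.61 in one, 0.884 kb from the gene end, and 1.93 and 3.02 in the other. EZH2, the paralogue of dividing cells, had 2 peaks in each control list and 2 and 1 in knockdown, with no locus in all 4. Among H4K20 methyltransferases, KMT5C (chr19:55339876-55348121), which trimethylates H4K20, held 1 and 2 peaks in control and none in either knockdown list, and its control-only locus had folds of 5.61 and 4.17. KMT5B, another H4K20 methyltransferase, had 4 peaks in each control list and 5 in each knockdown list.

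Acetyltransferases had few knockdown-only loci, and their share of 5.41% rests on 2. Over all loci in genes the share was 18.7%. The acetyltransferases' share was 17.4% (8 of 46) without knockdown replicate 2 and 9.09% without knockdown replicate 1. It was 8.11% without control replicate 1 and 13% at a fold of at least 4. All loci had 26.5%, 25.8%, 22.8% and 27.6% in these 4 settings. EP300 (chr22:41092592-41180077), the p300 coactivator, held 10 peaks in each control list and 9 and 7 in knockdown, with 7 loci in all 4 lists and 2 control-only. Its paralogue CREBBP had 8 in each control list and 6 and 7 in knockdown, with 5 loci in all 4 lists. KAT2A (chr17:42113111-42121367), the GCN5 subunit of SAGA, had 4 and 3 against 1 and 1. Of its 3 loci in both control lists 2 were control-only, the stronger with folds of 4.61 and 5.15 at 1.92 kb from the gene end.

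In the MYST family, which includes the H4K16 and H3K23 acetyltransferases, 1 of 25 loci was control-only and 2 of 24 were knockdown-only. KAT6A, a leukaemia fusion partner, held 19 and 18 peaks in control and 18 and 15 in knockdown, with 12 loci in all 4 lists. KAT7, which acetylates H3K14 at replication origins, had 0 and 2 peaks in control and 1 and 3 in knockdown. Its 1 locus in both knockdown lists was knockdown-only (folds 4.32 and 3.63) and lay at the gene start, in a span shared with FAM117A. KAT5, the TIP60 enzyme of DNA damage signalling, had 1 knockdown-only locus with folds of 2.80 and 2.97.

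**Figure D3:**
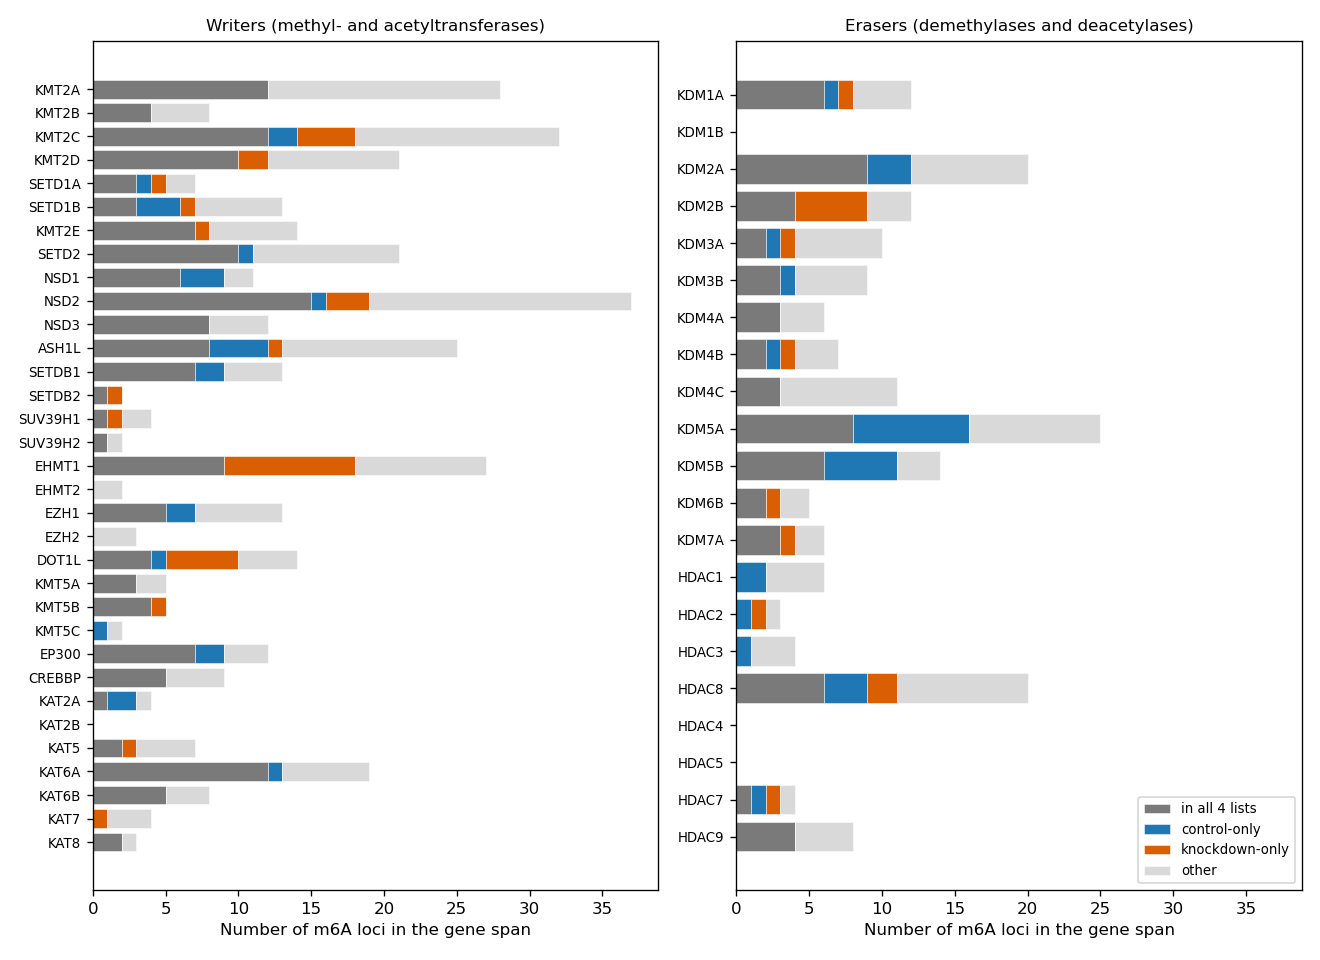
Number of m6A loci per gene (x axis) for the 33 writers (left) and 21 erasers (right), stacked by presence in all 4 lists, control-only, knockdown-only and other patterns. Control-only loci are most numerous in KDM5A (8) and KDM5B (5), and knockdown-only loci in EHMT1 (9), DOT1L (5) and KDM2B (5).

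Among erasers, the KDM5 demethylases, which remove H3K4 methylation, had the most control-only loci. KDM5A and KDM5B together held 32 and 38 peaks in control and 18 in each knockdown list (35.0 ± 4.24 against 18.0 ± 0.0, SD, n = 2 each, exact permutation p = 0.333). Of their 30 loci in both control lists 13 were control-only (43.3%, 27.4 to 60.8), and none of 14 in both knockdown lists was knockdown-only (upper Wilson limit 21.5%, above the 18.7% of all loci in genes). KDM5A (chr12:280057-389320) held 20 and 24 peaks against 11 and 12, and KDM5B (chr1:202724495-202808421), which is tied to slow-cycling melanoma cells, 12 and 14 against 7 and 6. Over all loci in genes the control-only share was 22.1%. With 1 list left out, which asks for less agreement, the pair's share ranged from 46.7% to 55.3%, where all loci had 28.4% to 30.1%. With stricter peaks it was 31.2% (14.2 to 55.6) at a fold of at least 4 and 34.6% (19.4 to 53.8) at a −log10 q of at least 20. All loci had 25% and 23.3% there, within these intervals.

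The 8 control-only loci of KDM5A were spread from 5.15 to 92.1 kb along the gene, with folds from 2.76 to 4.36 in control replicate 1 and 2.85 to 4.85 in control replicate 2. Their folds were thus modest beside its strongest shared locus, with 8.95 and 5.89 in control and 7.54 and 5.72 in knockdown. The locus at chr12:373070-373370 began 102 bp from a locus in all 4 lists, and the nearest shared locus was 491 bp to 8265 bp away for the other 7. At a fold of at least 4 KDM5A had 4 control-only loci, and without control replicate 1 it had 14.

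KDM5B had its 5 control-only loci from 0.126 to 80.8 kb from the start, while its 6 loci in all 4 lists lay between 66.8 and 79.3 kb in a gene of 83.9 kb. The strongest control-only locus (chr1:202762786-202762944) had folds of 4.83 and 5.49. The one at the start, over the sequence shown above, had 2.57 and 2.76. Only 1 of the 5 passed a fold of at least 4, and 3 passed a −log10 q of at least 20.

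The KDM2 demethylases, which act on H3K36 methylation at CpG islands, split. KDM2A held 15 and 14 peaks against 13 and 14, with 3 control-only loci and no knockdown-only one. KDM2B (chr12:121408461-121582279) held 6 and 7 against 10 and 12, with 5 knockdown-only loci and no control-only one. The 4 loci of KDM2B in all 4 lists were all on the opposite strand, in the span of RNF34, as was 1 of the 5 knockdown-only loci. On the KDM2B strand itself there were 4 knockdown-only loci, between 129 and 152 kb from its start, and the strongest had folds of 4.6 and 4.83.

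KDM1A, the LSD1 flavin demethylase, held 10 and 9 peaks in control and 8 and 9 in knockdown, with 6 of its 12 loci on the opposite strand. Its control-only locus (folds 5.81 and 4.5) was on the gene strand and its knockdown-only locus (5.02 and 5.37) on the opposite one. The control-only locus (chr1:23082115-23082292) lay within the bounds of an opposite-strand locus of all 4 lists (chr1:23082097-23082473). That position thus had a peak in every list on 1 strand. The H3K9 and H3K36 demethylases of the KDM4 family had 1 control-only locus of 11 and 1 knockdown-only of 11, both in KDM4B. KDM6B, the JMJD3 demethylase of H3K27, had 4 and 3 peaks against 3 and 4. Its 1 knockdown-only locus had folds of 5.90 and 6.23.

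**Figure D4:**
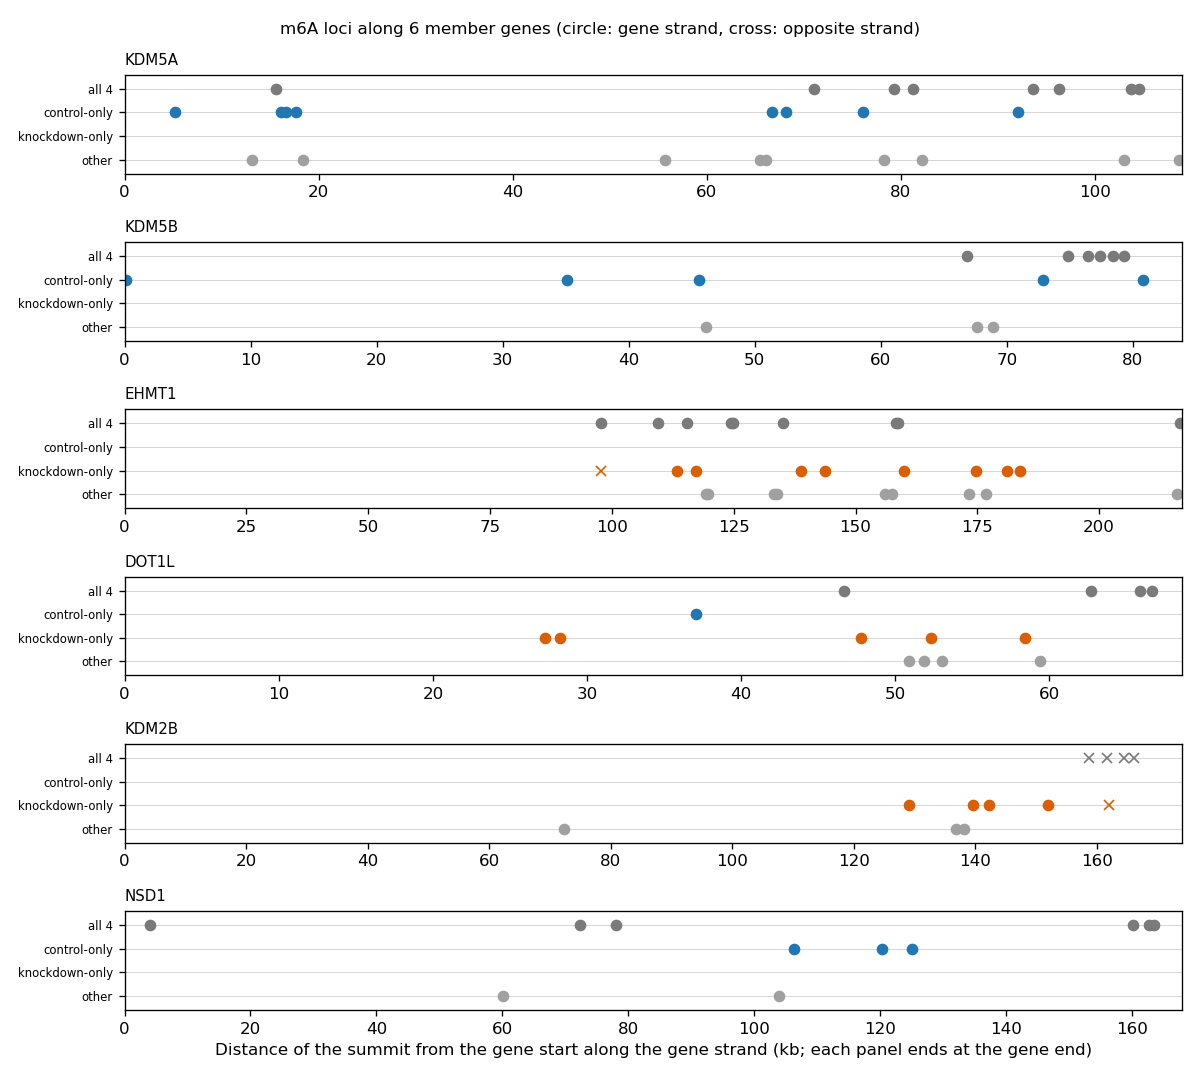
Position of the m6A loci of 6 enzymes along the gene (distance of the summit from the gene start, kb, x axis), in rows by presence; circles are on the gene strand and crosses on the opposite strand. Control-only loci of KDM5A run from 5.15 to 92.1 kb, knockdown-only loci of EHMT1 lie from 97.8 to 184 kb, and the 4 loci of KDM2B in all lists are crosses.

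Class I deacetylases, the nuclear catalytic subunits of the Sin3, NuRD and NCoR complexes together with HDAC8, had 23 and 25 peaks in control and 15 and 14 in knockdown (24.0 ± 1.41 against 14.5 ± 0.707, SD, n = 2 each, exact permutation p = 0.333). Control-only loci were 7 of 16 (43.8%, 23.1 to 66.8), beside 22.1% of all loci in genes, and 3 of 10 were knockdown-only. At a fold of at least 4 the control-only share was 28.6% (2 of 7, 8.22 to 64.1), where all loci had 25%. At a −log10 q of at least 20 it was 33.3% (3 of 9, 12.1 to 64.6), where all loci had 23.3%. With lists of equal length it was 38.5% (5 of 13, 17.7 to 64.5), where all loci had 21.1%. With 1 list left out it was 47.8% to 52.9%, where all loci had 28.4% to 30.1%. HDAC1 (chr1:32292083-32333626) had 4 and 3 peaks in control and 1 in each knockdown list. Both of its loci in both control lists were control-only, and both were weak (2.95 and 2.82, and 1.94 and 3.33). HDAC3 (chr5:141620881-141636849), the NCoR deacetylase, had 3 and 1 peaks against 0 and 1, and its control-only locus had folds of 2.08 and 2.87.

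HDAC2 (chr6:113933028-113971148) had 2 peaks in each control list and 2 and 1 in knockdown. It had 1 control-only locus at the start (2.78 and 4.75) and 1 knockdown-only locus 11.9 kb inside (2.38 and 2.58). HDAC8 (chrX:72329516-72572843), which deacetylates cohesin, had 14 and 19 against 12 and 11, with 6 loci in all 4 lists, 3 control-only and 2 knockdown-only. Without control replicate 1, or with a reciprocal overlap of 50%, its control-only loci were 6, and under the latter 3 loci were in all 4 lists. Of the class IIa deacetylases, which shuttle between nucleus and cytoplasm, HDAC7 held 3 and 2 peaks in either group and HDAC9 5 in each control list and 6 in each knockdown list.

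In 3 of 49 enzymes (6.12%) every locus of both control lists was control-only: HDAC1, HDAC3 and KMT5C. Over all genes this share was 9.48%. In 2 of 45 (4.44%), HDAC2 and KAT7, every locus of both knockdown lists was knockdown-only, against 10.1% of all genes. Each of these 5 genes had only 1 or 2 such loci, and genes with few loci can meet the definition more easily. At least 1 control-only or knockdown-only locus was present in 37 of the 50 enzymes with peaks. The same share over all genes was not computed, and genes with many loci meet this more easily. The count is thus not a trait of these enzymes.

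The enzymes work in complexes, and the 46 partner genes listed for them had 22 control-only loci among 184 (12.0%) and 39 knockdown-only among 194 (20.1%). The Wilson intervals were 8.03 to 17.4 and 15.1 to 26.3, beside 22.1% and 18.7% of all loci in genes. A control-only share as low as the writers' 11.5% was thus also seen in these partner genes. The COMPASS partners of the H3K4 methyltransferases had 9 of 36 and 1 of 22, with 3 control-only loci each in HCFC1 and NCOA6. Partners of acetyltransferases had 3 of 46 and 18 of 63, and EP400, the TIP60 complex ATPase, held 14 of these 18. EP400 had 20 and 18 peaks in control and 34 and 33 in knockdown. Partners of deacetylases had 7 of 78 and 15 of 86, with 4 knockdown-only loci in SIN3B, and those of Polycomb repressive complex 2 had 3 of 24 and 5 of 23, with 4 knockdown-only loci in JARID2.

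All loci of these genes lay inside gene spans by definition. Most of each span counts as interior, so a high number of interior loci follows from the definition. Of the 569, 492 were interior, 41 lay within 2000 bp of the gene end, 11 within 500 bp of the start and 25 on the opposite strand. The table has no exons, so exonic and intronic loci were not told apart. Of interior loci 16.6% were control-only (48 of 290) and 15.4% knockdown-only (38 of 247), and of gene-end loci 16.0% (4 of 25) and 9.09% (2 of 22). Loci at gene starts were few, with 2 of 5 control-only (40%, 11.8 to 76.9) and 3 of 7 knockdown-only (42.9%, 15.8 to 75). On the opposite strand none of 12 was control-only (upper Wilson limit 24.2%) and 3 of 16 were knockdown-only (18.8%, 6.59 to 43). Longer genes tended to have more loci (Spearman 0.487 across the 54 genes, which are not replicates). Within 1000 bp of a 4-list locus of the same gene and strand lay 10 of the 54 control-only and 13 of the 46 knockdown-only loci.

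Control-only and knockdown-only loci had smaller median widths and folds than shared ones. Median widths were 200 bp and 243 bp against 407 bp in all 4 lists, where a union of more peaks is wider by construction. In control replicate 1 the median fold was 3.46 over the 54 control-only loci and 4.73 over the 229 shared ones, and in control replicate 2 3.58 and 4.5. In the knockdown lists the medians were 4.06 and 5.0, and 3.91 and 4.89. Folds of the 2 kinds overlapped widely in each list. Over all their peaks the enzymes had median folds of 4.17, 3.89, 4.32 and 4.30, slightly above the 3.84, 3.65, 3.92 and 3.93 of the whole lists.

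**Figure D5:**
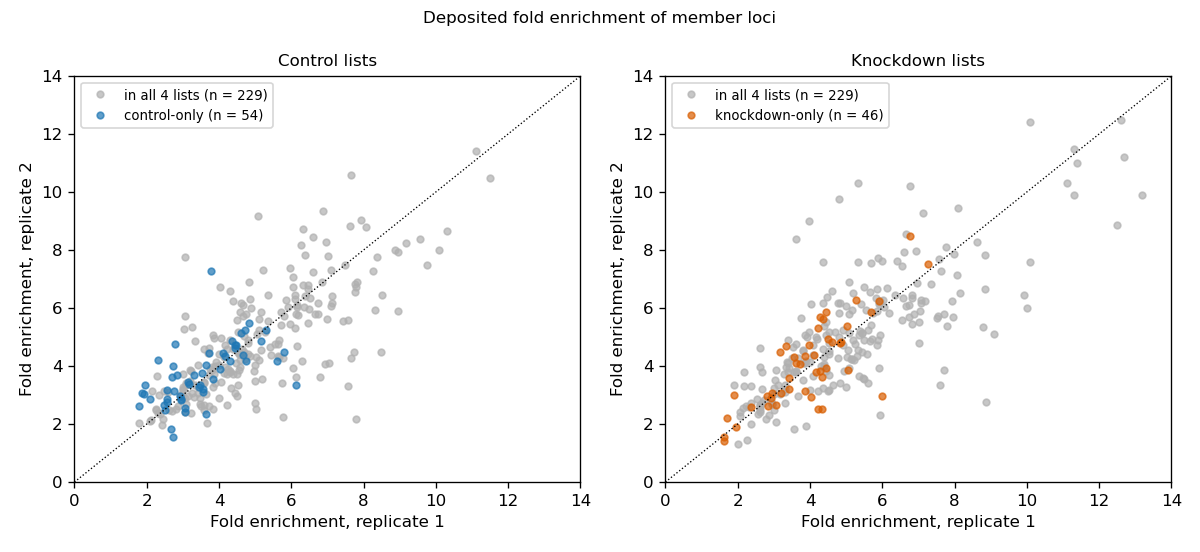
Fold enrichment in replicate 1 (x axis) against replicate 2 (y axis) in the control lists (left) and the knockdown lists (right), 1 point per locus; grey points are the 229 loci of all 4 lists, coloured points the 54 control-only or 46 knockdown-only loci, and the dotted line marks equal folds. Coloured points sit in the lower part of the grey range, up to 6.12 and 7.28 in control and 7.27 and 8.48 in knockdown.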

How the data were processed

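The data are 1 list of m6A peaks per immunoprecipitated library, 2 control and 2 METTL3 knockdown, so the peaks were not called on pooled libraries. The tools MACS2 (version 2.2.7.1), HISAT2 (version 2.1.0) and Bowtie2 (version 2.4.2), SAMtools, Trim Galore (version 0.6.6) and the build hg38 are listed without roles in the submitters' processing notes. No role of the input libraries or the spike-in in peak calling was given in the sources used here. The fold enrichment is a ratio that the authors deposited for each summit. Significance was deposited by the authors as −log10 of the p-value and of the q-value, with a smallest −log10 q of 2.0. The deposited score follows the q-value and was not used.

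Peaks were assigned by summit to spans of RefSeq GRCh38.p14 genes, and loci by the summit of their highest peak (Python 3.11.15, NumPy 2.4.6, SciPy 1.17.1). A gene's strand came from the RefSeq promoter table for 48 enzymes and from the loci themselves for 5 (at least 80% of at least 3 loci). One enzyme, HDAC5, had neither. Peaks per list were compared by a 2-sided exact permutation test, shares given with 95% Wilson intervals. Locus merging was tested on simulated peaks. The alternatives were stricter peaks, lists of equal length, gene strand only, summits in 1 gene only, a 50% reciprocal overlap, each list left out, and a replicate block.

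Named genes are, per class, up to 4 with the most control-only loci, up to 4 with the most knockdown-only, up to 3 with the most in all 4 lists, those with every locus of a group specific to it, and those without a peak. Further genes are named as members of a count or of a small family. For partner lists, the genes with the most loci of a kind are named. The enzymes and all lists were chosen with earlier results of these data known.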

Additional observations from a re-analysis of the deposited data

How the results depend on the processing

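Writers' and erasers' differences in peaks per list (-12.5 and -20.5) kept their sign, though the writers' ranged from -2.5 (lists of equal length) to -26 (without EHMT1 and DOT1L), except at a fold of at least 4, where they were 9.5 and 0.5 (exact permutation p = 0.667 and 1.0). At that fold all lists together had 13882 loci in both control lists and 14621 in both knockdown lists, against 36660 and 33195 without it. With the replicate block the differences stayed at -12.5 and -20.5 by construction (exact sign-flip permutation p = 0.5, the smallest possible). The replicate differences in log2 fold had a correlation of 0.0028 over 23691 shared loci. The folds thus gave no sign that the replicate numbers pair the libraries, but they cannot exclude a pairing. With each list left out in turn, the writers' control-only share ranged from 17.3% to 20.8% and the erasers' from 31.4% to 34.9%. All loci then had 28.4% to 30.1%, since 3 lists ask for less agreement. The writers' knockdown-only share then ranged from 17.8% to 22%, and was 9.84% without EHMT1 and DOT1L. Enzymes with only knockdown-only loci in the knockdown lists numbered 1 to 3 with 1 list left out (1 without knockdown replicate 2). Of 21 control-only counts of named genes, 13 were lower by over 1.5 times at a fold of at least 4, and 11 of 15 knockdown-only counts. Leaving out 1 list raised 3 to 8 of the 21 control-only counts and 1 to 5 of the 15 knockdown-only counts by over 1.5 times and lowered none by that much. Peaks per list do not depend on the reciprocal overlap, so it gave no value for them. Without read depths, a peak that was missed cannot be told from one that was absent.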
